A study of Caenorhabditis elegans with 4 samples.

Results

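ATP-binding cassette (ABC) transporters of *Caenorhabditis elegans* were examined as 53 protein-coding genes of a count table with 46643 genes. They were taken by name, as the P-glycoproteins (*pgp*, 14 genes), the *haf* genes (8), the *mrp* genes with *cft-1* (9), the *abt* genes with *ced-7* (6), the *pmp* genes (5), the *wht* genes (8) and the *abcf* genes (3). RNA from whole wild-type (N2) animals was sequenced at adult day 1. Synchronised L1 larvae had been raised at 25 °C on OP50 bacteria, either with 2.5 mM ketamine (2 libraries) or with M9 buffer as the vehicle (2 libraries, 0 mM). Both groups thus share the genotype, the food and the temperature. The authors report that animals on ketamine developed more slowly and unevenly and had a smaller brood. A difference in stage therefore cannot be told apart from the treatment. The labels do not say whether the libraries of a group came from separate cultures, and the p-values then measure only the spread between these libraries.

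ABC transporters use the energy of ATP to move substrates across a membrane. P-glycoproteins and MRP proteins (multidrug resistance-associated proteins) export lipophilic drugs, conjugates and metals, and several of them act in the intestine and the excretory cell of the worm, where they limit the entry of toxic compounds. The other groups have separate roles. HAF proteins are shorter transporters of organelle membranes. PMP proteins are named for the peroxisomal membrane, where some of them import fatty acyl compounds, and the site of each was not tested here. ABT proteins resemble the mammalian ABCA lipid transporters, WHT proteins resemble the ABCG group, and ABCF proteins have no membrane domain and act in translation.

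The libraries held 34533449 and 29192110 counts under ketamine, against 43419202 and 36241505 counts in controls. Levels are given as CPM (counts set to a common library size after TMM scaling, edgeR's correction for library composition), and as the deposited FPKM, which divides by gene length, where genes are compared with each other. Across genes log2 CPM correlated at 0.994 between the ketamine libraries and at 0.969 between the controls. Of the 50 members tested, 32 had their highest CPM in control 1, as had 38.4% of all tested genes. Many small differences below moved when that library or another was left out. Marker genes also differed between the libraries. For comparison, 50.5% of all tested genes had a log2 fold change below 0 and 49.5% above. At an unadjusted p under 0.05 in edgeR, 3.32% of all genes were lower and 2.77% higher. Both ketamine libraries were above both controls in 23.1% of all genes and below both in 20.6%. The 10 sperm markers summed to 87.7 and 69.7 CPM under ketamine and 138 and 127 CPM in controls, with 10 of 10 below 0 on the log2 scale and 5 at an unadjusted p under 0.05. Of 10 intestinal markers 9 were tested, 6 of them above 0, and the list summed to 3246 and 3391 CPM under ketamine, and to 1978 CPM in control 1 and 3418 CPM in control 2. Of the pharyngeal markers 4 of 6 tested lay below 0, 1 of them at an unadjusted p under 0.05. The list summed to 93.6 and 101 CPM under ketamine and 137 and 180 CPM in controls. The 7 excretory cell markers all lay below 0 without passing the test, and summed to 516 and 521 CPM under ketamine and 531 and 580 CPM in controls. The 9 germline and oocyte markers had 8 above 0 and 7 with both ketamine libraries above both controls, with sums of 12372 and 11996 CPM under ketamine and 8070 and 10043 CPM in controls. The 5 body wall muscle markers all lay below 0, 2 of them at an unadjusted p under 0.05, with sums of 2600 and 2517 CPM under ketamine and 2545 and 4191 CPM in controls. The 7 epidermal markers summed to 1079 and 951 CPM under ketamine, and to 510 CPM in control 1 and 1765 CPM in control 2. The 5 neuronal markers summed to 260 and 259 CPM under ketamine and 282 and 244 CPM in controls. The part of these lists in the results below was not tested. In whole animals fewer cells of a type, less RNA per cell and a difference in stage cannot be told apart.

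The question of the design was which genes respond when animals grow on ketamine. Among the ABC genes the answer was very unequal. *pgp-13* rose 26.6-fold, and no other member of the 50 tested passed edgeR's quasi-likelihood test at a Benjamini-Hochberg adjusted p under 0.05 over all genes with at least 2-fold change. The next largest differences were 2.02-fold for *pgp-1* and 1.62-fold for *pgp-14*, neither of which passed that test. The 1 member called higher stands beside 0.095% of the 15793 genes tested. No member was called lower, where 0% of all tested genes were. DESeq2 also called 1 member higher and 0 lower, where it called 0.69% of all genes higher and 0.146% lower. By its unadjusted p with 2-fold, 2 members were higher (2.32% of all genes) and 0 lower (1.54%). At an unadjusted p under 0.05 and at least 2-fold, edgeR had 2 members higher (*pgp-13* and *pgp-1*, against 2.05% of all genes) and 0 lower (against 1.63%). Without the fold limit 3 members were higher (*pgp-13*, *pgp-1* and *pgp-14*) and 2 lower (*pmp-5* and *mrp-1*), where 2.77% of all genes were higher and 3.32% lower.

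**Figure D1:**
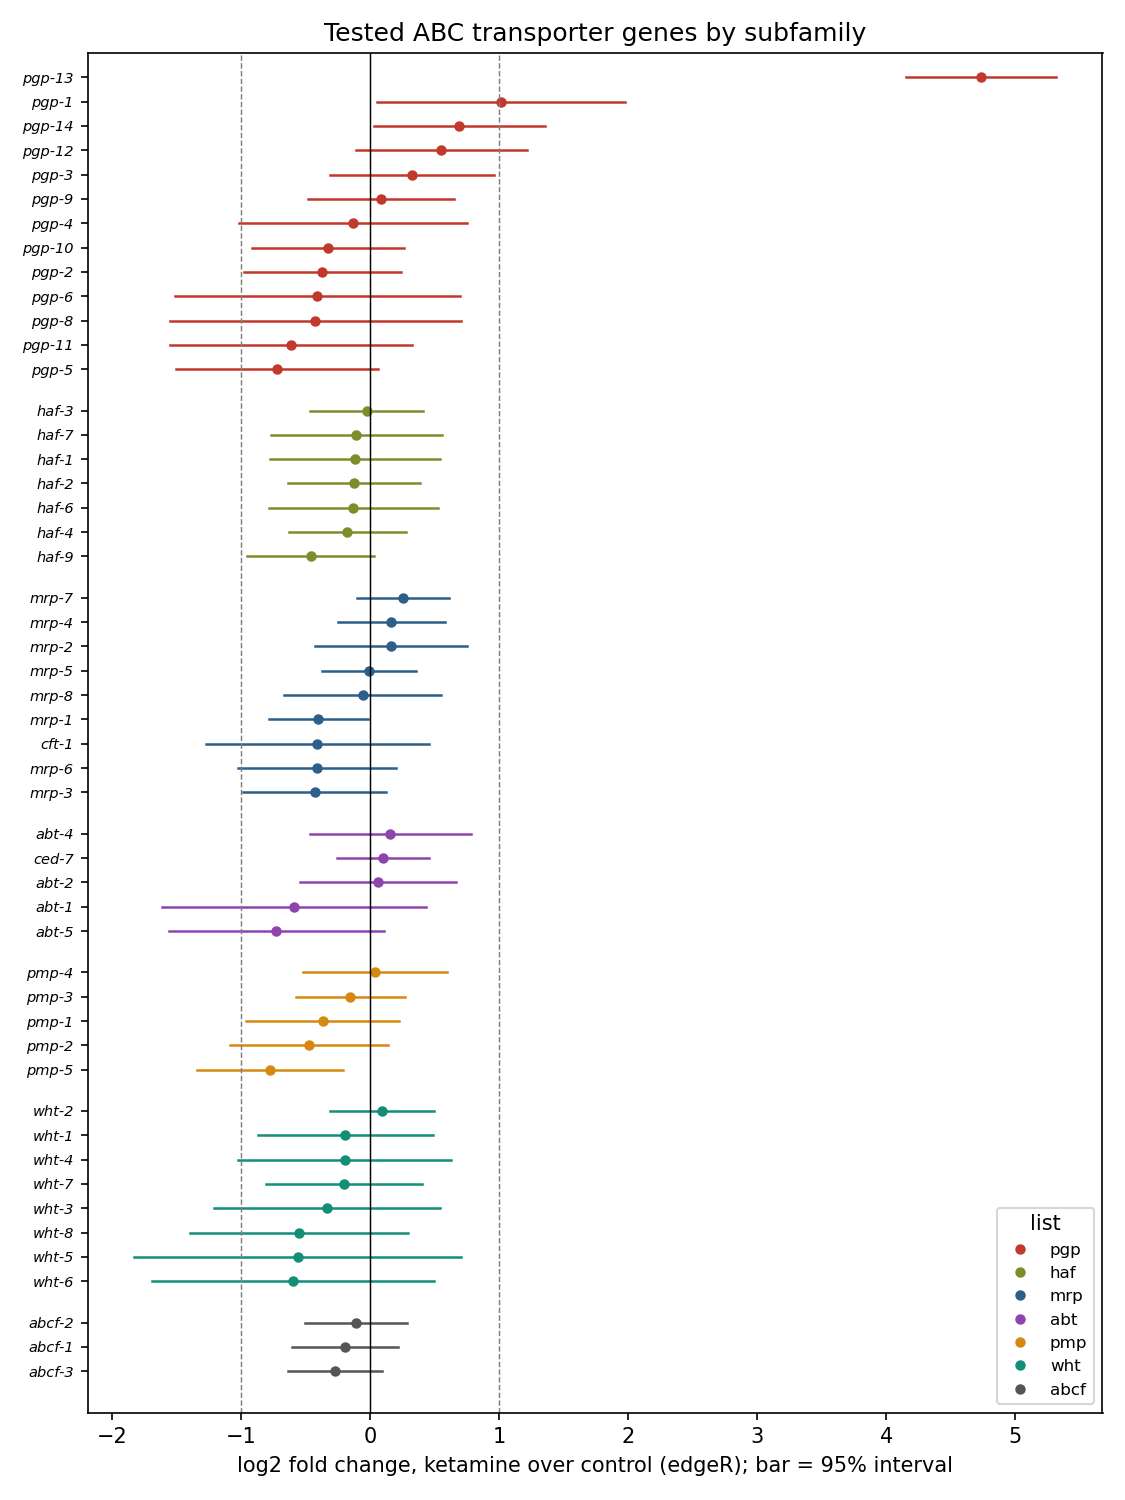
Log2 fold change of ketamine over control for the 50 tested ABC genes, by list and ordered within each list. Points are edgeR estimates, bars their 95% intervals, and dashed lines mark 2-fold. *pgp-13* lies at 4.73, while 48 of the 50 genes lie within 2-fold.

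*pgp-13* (F22E10.2) lies on the X chromosome of WBcel235, at 12738996 to 12744375 on the plus strand, and overlaps no other gene of the table. It had 2748 and 2909 counts under ketamine, against 152 and 123 counts in controls. That is 80.7 and 101 CPM under ketamine and 3.30 and 3.51 CPM in controls. The controls lay close together, and both ketamine libraries stood far above them. The means were 90.7 ± 14.2 CPM under ketamine and 3.41 ± 0.154 CPM in controls (SD, n = 2 each), with a log2 fold change of 4.73 (standard error 0.23, 95% interval 4.15 to 5.32, adjusted p = 0.0116, edgeR). By p-value it ranked 7 among the 15 genes that edgeR called higher. Leaving out any library in turn kept the log2 fold change between 4.57 and 4.89 and the adjusted p at or under 0.0288. The call was lost only with limma on log2(FPKM + 1) without a filter on low values (adjusted p = 0.110). With the filter, limma on that scale gave the same log2 fold change, 3.65, and *pgp-13* was called (adjusted p = 0.0349).

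Per length, *pgp-13* was the next most abundant P-glycoprotein after *pgp-1* in both ketamine libraries. It stood at 19.5 and 24.3 FPKM under ketamine and at 0.799 and 0.849 FPKM in controls. Within the summed FPKM of the 14 P-glycoproteins its share was 21.8% and 26.7% under ketamine, and 1.34% and 1.48% in controls. *pgp-1*, a P-glycoprotein of the apical intestinal membrane, held 33.9% and 29.3% under ketamine, and 15.3% and 33.3% in controls. The ratio of *pgp-13* to *pgp-1* FPKM was 0.644 and 0.913 under ketamine and 0.0876 and 0.0444 in controls, so *pgp-1* was the more abundant of the pair in every library.

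**Figure D2:**
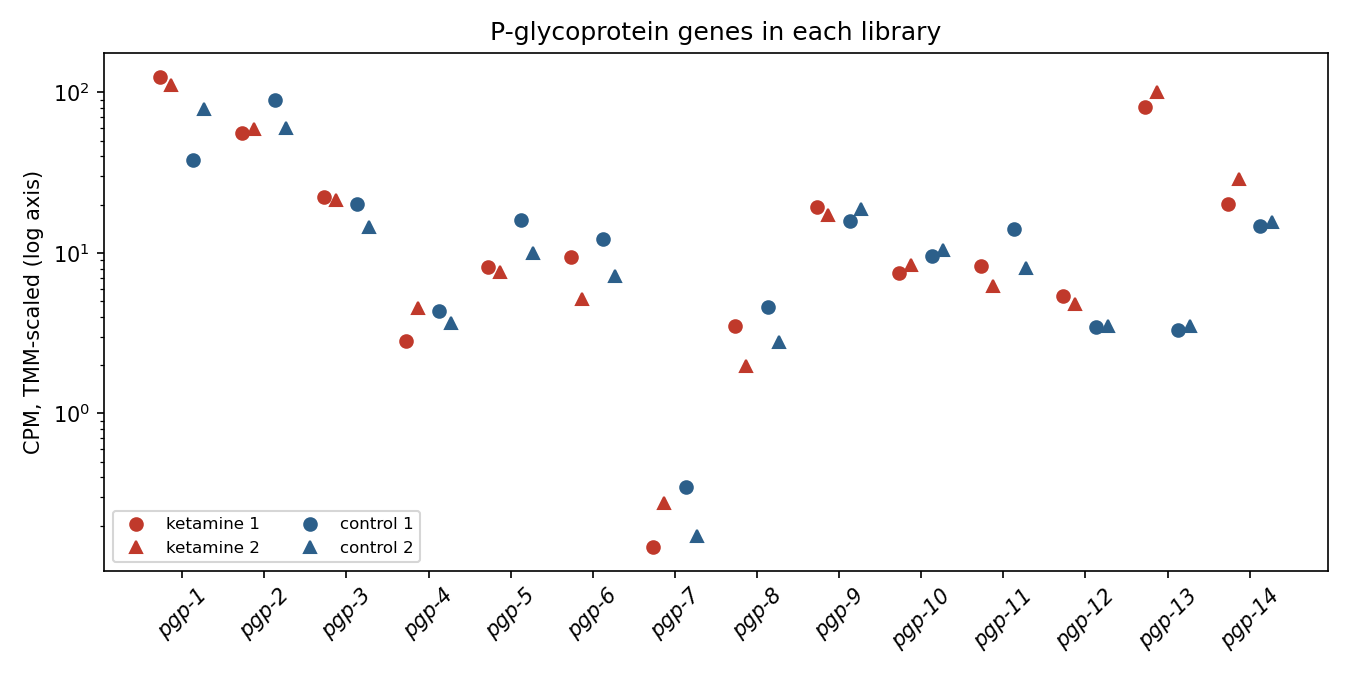
TMM-scaled CPM of the 14 P-glycoprotein genes in each library, on a log axis. Red points are the ketamine libraries and blue points the controls, with circles for replicate 1 and triangles for replicate 2. *pgp-13* separates the groups at 80.7 and 101 CPM under ketamine against 3.30 and 3.51 CPM in controls, while *pgp-7* stays below 0.35 CPM in all 4 libraries.

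*pgp-13* sits between 2 other P-glycoprotein genes, neither of which passed the test. *pgp-12* (F22E10.1, X, 12731850 to 12737432, plus strand), a gene active in the excretory cell, ends 1563 bases before it. *pgp-14* (F22E10.3, X, 12744722 to 12749580, minus strand), which contributes to the lipid barrier of the pharyngeal cuticle, lies 346 bases after it on the other strand. *pgp-12* had 5.43 and 4.81 CPM under ketamine and 3.47 and 3.51 CPM in controls. Its groups did not overlap, and its log2 fold change was 0.55 (95% interval -0.11 to 1.21, adjusted p = 0.748, edgeR). *pgp-14* had 20.2 and 28.8 CPM under ketamine and 14.6 and 15.7 CPM in controls. Here too both ketamine libraries were above both controls, and edgeR estimated 0.69 on the log2 scale with a standard error of 0.26 (unadjusted p = 0.0427, adjusted p = 0.748). Without ketamine 2, its higher library, the value was 0.42.

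In controls *pgp-13* and *pgp-12* were at the same level per length, and under ketamine they were not. The ratio of *pgp-13* to *pgp-12* FPKM was 14.9 and 20.9 under ketamine, against 0.950 and 1.00 in controls. Relative to *pgp-14* it was 4.2 and 3.68 under ketamine and 0.237 and 0.236 in controls. On the log2 scale of the counts, the first ratio was higher under ketamine by 4.18 and the second by 4.05. Both ketamine libraries exceeded both controls in each ratio, and the exact two-sided permutation test gave p = 0.333, the smallest that 2 against 2 libraries allow. Whether reads are shared between these paralogs was not tested. A pseudogene of the same stretch, *pgp-15* (F22E10.4), had 4 and 8 counts under ketamine and 6 and 3 in controls and lies outside the rule.

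**Figure D3:**
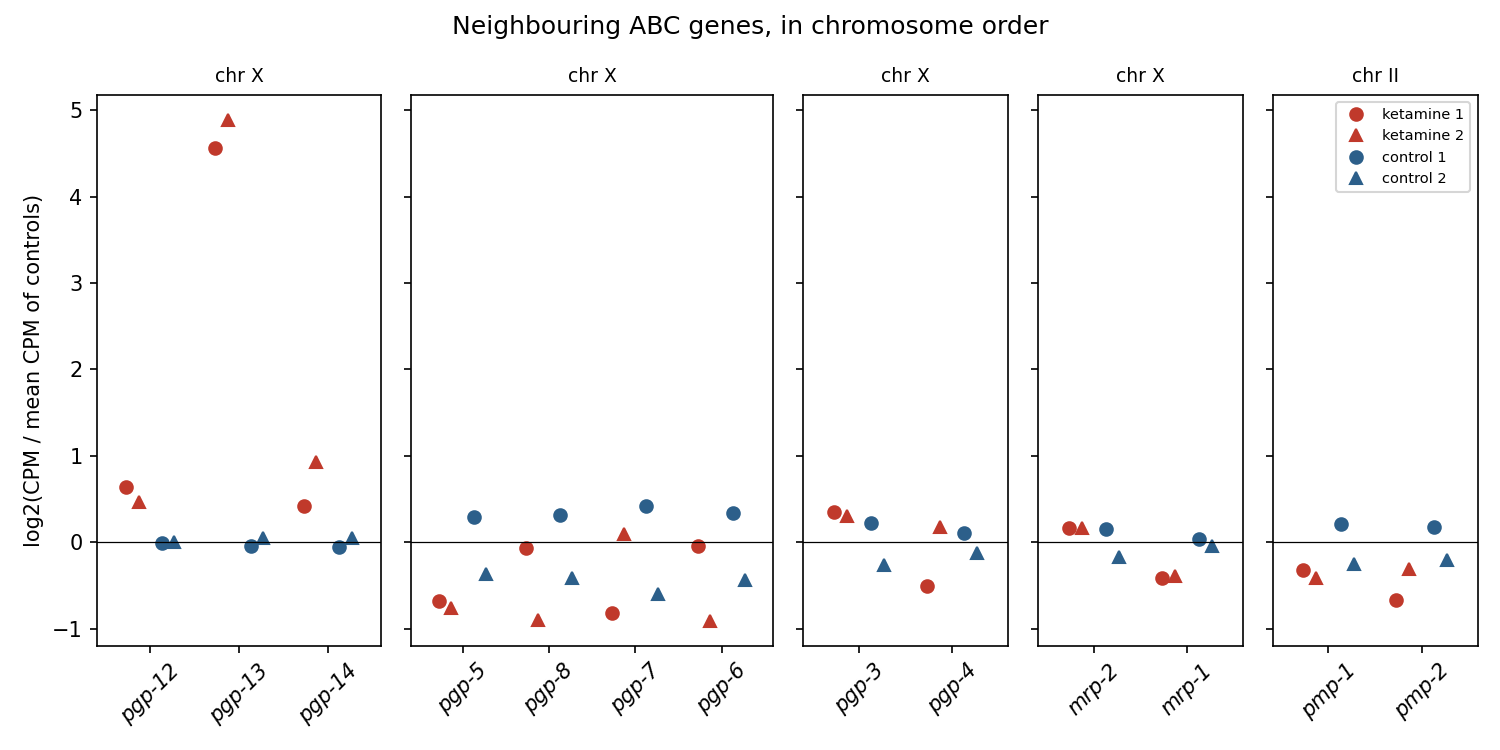
Neighbouring ABC genes in chromosome order, as log2 of each library's CPM over the mean CPM of the controls. Red points are ketamine and blue points control libraries. *pgp-13* stands apart from *pgp-12* and *pgp-14* in both ketamine libraries, whereas the points of the other 4 groups stay within 2-fold of the control mean.

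*pgp-1* (K08E7.9, IV, 12591696 to 12599169, minus strand), the intestinal P-glycoprotein, had the next largest difference. Its CPM was 126 and 111 under ketamine, against 37.8 and 79.4 in controls. Both ketamine libraries were above both controls, but the controls were far apart, with control 1 the lowest of the 4 libraries. The log2 fold change was 1.01 (standard error 0.37, 95% interval 0.05 to 1.98, adjusted p = 0.748, edgeR). Leaving out control 1 gave 0.55, and leaving out control 2 gave 1.64. The size of its difference thus depended on the control it was set against.

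Of the remaining tested P-glycoproteins, *pgp-3* and *pgp-9* had a log2 fold change above 0 and all others lay below. Over the 13 tested, with *pgp-13*, *pgp-1*, *pgp-12* and *pgp-14* included, 6 lay above 0 and 7 below. Among all tested genes 50.5% lay below 0. The median of the 13 was -0.13, or -0.03 without control 1 and -0.25 without control 2. *pgp-3*, which gives resistance to colchicine and chloroquine, had 22.2 and 21.5 CPM under ketamine and 20.2 and 14.5 CPM in controls, and its log2 fold change of 0.33 was 0.56 without control 1 and 0.11 without control 2. Its neighbour *pgp-4*, 1304 bases downstream, had 2.82 and 4.54 CPM under ketamine and 4.34 and 3.69 CPM in controls, and there the groups overlapped. Its log2 fold change of -0.13 became 0.18 without ketamine 1. *pgp-2*, a transporter of the gut granules, lysosome-related organelles of the intestine, had 56 and 59.6 CPM under ketamine and 89.2 and 60.0 CPM in controls. Control 1 alone was high, and without it the log2 fold change of *pgp-2* was -0.08, against -0.37 with all libraries.

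The array of *pgp-5*, *pgp-8*, *pgp-7* and *pgp-6* on the X chromosome, with 546 to 976 bases between neighbours, held the lowest value of the family. *pgp-5* (C05A9.1, X, 10854320 to 10858712) had 8.13 and 7.65 CPM under ketamine and 15.9 and 10.1 CPM in controls, and edgeR gave a log2 fold change of -0.72 with a standard error of 0.30 (adjusted p = 0.748). The groups did not overlap, and the value was -0.38 without control 1 and -1.02 without control 2. *pgp-6* had 9.48 and 5.19 CPM under ketamine and 12.3 and 7.20 CPM in controls. *pgp-8* had 3.52 and 1.97 CPM under ketamine and 4.60 and 2.77 CPM in controls. For both genes replicate 2 of each group was lower than replicate 1, and the groups overlapped. Their log2 fold changes of -0.41 and -0.42 were near 0 without control 1 and -0.74 each without control 2. *pgp-7* did not reach the count filter, with 5 and 8 counts under ketamine and 16 and 6 in controls. *pgp-9*, *pgp-10* and *pgp-11* had log2 fold changes of 0.08, -0.33 and -0.61. The value of *pgp-11* was -0.17 without control 1 and -0.96 without control 2, and that of *pgp-9* turned to -0.06 without control 1.

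The P-glycoproteins as a whole had a higher summed level under ketamine, and this difference was carried by *pgp-13* and *pgp-1*. Their FPKM summed to 89.5 and 91.1 under ketamine, against 59.6 and 57.4 in controls. Without *pgp-13* the sums were 69.9 and 66.7 under ketamine and 58.8 and 56.5 in controls. Without *pgp-1* as well they were 39.6 and 40.1 under ketamine and 49.7 and 37.4 in controls, and the groups overlapped.

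**Figure D4:**
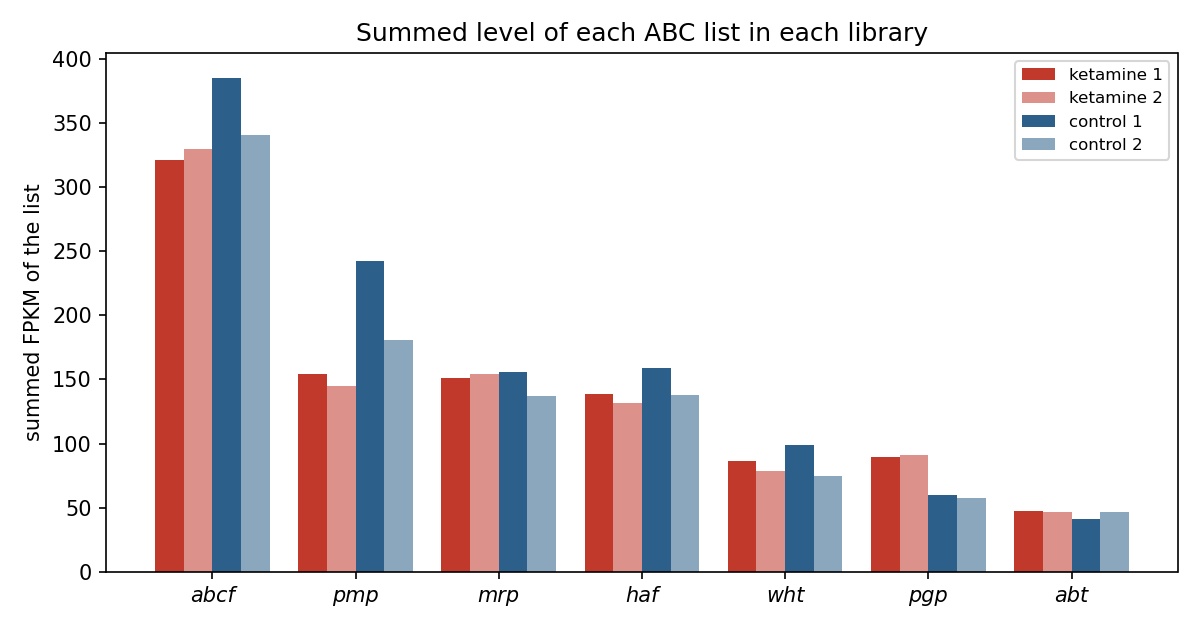
Summed FPKM of the members of each ABC list in each library, in bars that start at 0. The *pgp* sum was 89.5 and 91.1 under ketamine against 59.6 and 57.4 in controls, and the *pmp* sum was 154 and 145 under ketamine against 242 and 181 in controls.

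The other exporter family, *mrp* with *cft-1*, did not show a difference that passed the test. Its 9 members were all tested and had a median log2 fold change of -0.06 (0.04 without control 1 and -0.22 without control 2), from -0.43 for *mrp-3* to 0.26 for *mrp-7*. *mrp-7* (Y43F8C.12, V, 19674843 to 19693044), linked to the handling of methylmercury, had 167 and 160 CPM under ketamine and 142 and 132 CPM in controls. The groups did not overlap, and the difference was small (95% interval -0.10 to 0.61, adjusted p = 0.748, edgeR). *mrp-4* (F21G4.2, X, 9884278 to 9889704) was the most abundant of the family at a mean of 63.1 FPKM. It had 328 and 355 CPM under ketamine and 326 and 282 CPM in controls, with ketamine 1 and control 1 nearly equal. *mrp-5*, the intestinal exporter of heme, had 134 and 130 CPM under ketamine and 140 and 126 CPM in controls, a log2 fold change of -0.01.

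*mrp-1*, which gives resistance to cadmium and arsenite, was lower by a small amount in close replicates. Its CPM was 60.7 and 61.4 under ketamine, against 83.0 and 78.1 in controls (X, 576318 to 587483, F57C12.5). The log2 fold change was -0.40 (standard error 0.15, unadjusted p = 0.0428, adjusted p = 0.748, edgeR), and it lay between -0.44 and -0.38 when any library was left out. *mrp-2*, which lies 3616 bases downstream of it on the same strand, had 16.1 and 16 CPM under ketamine and 16 and 12.7 CPM in controls. *mrp-3* (E03G2.2, X, 15929954 to 15939324) had 25.1 and 23.3 CPM under ketamine and 36.4 and 28.7 CPM in controls (log2 fold change -0.43, adjusted p = 0.748, edgeR), and its value was -0.27 without control 1. *mrp-6*, *mrp-8* and *cft-1* had log2 fold changes of -0.41, -0.06 and -0.41. Without control 1 these were -0.27, 0.09 and -0.14. *cft-1* overlaps a coding gene on the opposite strand, and whether counting used strand is not given in the sources used here.

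The 5 *pmp* genes had a median log2 fold change of -0.37, against -0.01 for all tested genes. It was the lowest of the ABC lists with all libraries, but was -0.14 without control 1, where the *abt* median was -0.15, and -0.58 without control 2. *pmp-5* (T10H9.5, V, 6662234 to 6665815) was the most abundant of them at 88.3 FPKM. It had 172 and 150 CPM under ketamine, against 322 and 228 CPM in controls. Both ketamine libraries were below both controls, which were themselves far apart, and the log2 fold change of -0.77 (standard error 0.22, unadjusted p = 0.0172) had an adjusted p of 0.748 in edgeR. It was -0.53 without control 1 and -1.0 without control 2. The neighbours *pmp-1* and *pmp-2*, 294 bases apart on chromosome II, had log2 fold changes of -0.37 and -0.48, again with both ketamine libraries below both controls. Without control 1 these were -0.14 and -0.30, and without control 2 they were -0.58 and -0.66. *pmp-1* had 31.3 and 29.5 CPM under ketamine and 45.5 and 32.9 CPM in controls, and *pmp-2* had 28.4 and 36.4 CPM under ketamine and 50.9 and 39.1 CPM in controls.

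*pmp-3*, widely used as a reference gene in real-time RT-PCR of the worm, had 138 and 130 CPM under ketamine and 163 and 134 CPM in controls (log2 fold change -0.15, 95% interval -0.57 to 0.27), and -0.03 was found without control 1. *pmp-4* (T02D1.5, IV, 17402463 to 17405630) had 11.9 and 11.2 CPM under ketamine and 11.5 and 11 CPM in controls. It had the smallest difference of the list, 0.04, which turned negative with upper-quartile or total-count scaling and without ketamine 1. The FPKM of the 5 genes summed to 154 and 145 under ketamine and 242 and 181 in controls, and without *pmp-5* to 84.6 and 84.1 under ketamine and 111 and 88.4 in controls. Of 11 peroxisome biogenesis genes (*prx*), 0 passed at an unadjusted p under 0.05 in either direction, and their median log2 fold change was -0.23. Among all genes, 3.32% were lower and 2.77% higher at that limit in edgeR. The *prx* list summed to 306 and 323 CPM under ketamine, 417 CPM in control 1 and 307 CPM in control 2. Control 1 alone was high.

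The 7 of 8 *haf* genes that were tested had negative log2 fold changes between -0.46 and -0.03, where 50.5% of all genes lay below 0. At an unadjusted p under 0.05 in edgeR 0 passed, where 3.32% of all genes were lower and 2.77% higher. Without control 1, 3 of the 7 turned positive (*haf-2* at 0.06, *haf-3* at 0.12 and *haf-7* at 0.08), and the median was -0.07 in place of -0.12. *haf-9* (ZK484.2, I, 6081782 to 6085023), which pairs with *haf-4* in intestinal lysosome-related organelles, had 38.8 and 36.6 CPM under ketamine and 57.2 and 46.6 CPM in controls (log2 fold change -0.46, 95% interval -0.95 to 0.03, adjusted p = 0.748, edgeR). *haf-4* itself had 37.7 and 34.0 CPM under ketamine and 40.1 and 40.9 CPM in controls. In both genes the ketamine libraries were below the controls. *haf-1*, the mitochondrial peptide exporter of the unfolded protein response, had 5.93 and 7.34 CPM under ketamine and 7.59 and 6.80 CPM in controls, and *haf-6*, which is needed for efficient RNA interference, had 33.5 and 33.8 CPM under ketamine and 29.4 and 44.2 CPM in controls. Their groups overlapped, and the log2 fold change of *haf-6* was -0.42 without control 1 and 0.19 without control 2. Each of the pair overlaps a coding gene on the opposite strand. *haf-3* (F57A10.3, V, 15760448 to 15766172) was the most abundant at 48.9 FPKM, with a log2 fold change of -0.03, and had 109 and 109 CPM under ketamine and 123 and 98.4 CPM in controls. *haf-8* had 2 and 0 counts under ketamine and 0 and 0 in controls and was not tested.

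Among the ABCA-like genes, *ced-7* (C48B4.4, III, 9570216 to 9579120), which acts in the engulfment of dying cells, was the most abundant at 32.0 FPKM. It had 196 and 192 CPM under ketamine, against 177 and 185 CPM in controls. This difference was small though the groups did not overlap, with a log2 fold change of 0.10 (standard error 0.14, 95% interval -0.25 to 0.45, adjusted p = 0.818, edgeR). Of 11 other engulfment genes tested, 0 were higher at an unadjusted p under 0.05 and 1 was lower, against 3.32% of all genes lower. The lower gene was *nrf-5*, with a log2 fold change of -0.66. *abt-4* (Y39D8C.1, V, 323777 to 330727) had 57.6 and 57.9 CPM under ketamine and 41.4 and 62.2 CPM in controls, and its log2 fold change of 0.16 turned to -0.13 without control 1. *abt-5* (Y53C10A.9, I, 12011276 to 12018668) was at low levels, 2.14 and 1.56 CPM under ketamine and 3.25 and 2.89 CPM in controls (log2 fold change -0.73, adjusted p = 0.748, edgeR). *abt-1* and *abt-2* had log2 fold changes of -0.59 and 0.06, which were -0.33 and -0.15 without control 1. Over the 5 tested ABCA-like genes the median was 0.06 with all libraries and -0.15 with control 1 left out. *abt-6* was at 0 counts in all 4 libraries, which allows up to 3 counts in each, or 0.0651 to 0.104 CPM.

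The *wht* genes had a median log2 fold change of -0.27 over 8 genes, 7 of them below 0 (50.5% of all genes). At an unadjusted p under 0.05 in edgeR 0 passed, where 3.32% of all genes were lower and 2.77% higher. The median was -0.10 without control 1, -0.42 without control 2, -0.45 without ketamine 1 and -0.13 without ketamine 2. Levels split the family in a pair of abundant genes and 6 low ones. *wht-2* (C10C6.5, IV, 11470185 to 11473417) and *wht-7* averaged 42.2 and 33.4 FPKM, while the other 6 lay between 0.857 and 2.57 FPKM. *wht-2* had 97.8 and 95.1 CPM under ketamine and 97.5 and 83.4 CPM in controls, a log2 fold change of 0.09 that changed sign without control 2 and with upper-quartile scaling. *wht-7* had 78.8 and 69.1 CPM under ketamine and 101 and 68.9 CPM in controls, and its log2 fold change of -0.20 became 0.07 without control 1. *wht-6* (T26A5.1, III, 6471770 to 6475251) had 4.35 and 3.46 CPM under ketamine and 7.94 and 3.86 CPM in controls. It rested on control 1, since its log2 fold change was -0.60 with all libraries, -0.01 without control 1 and -1.02 without control 2.

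The *abcf* genes were among the 5 most abundant members per length, with means of 94.1 FPKM for *abcf-1*, 192 FPKM for *abcf-2* and 58.4 FPKM for *abcf-3*. *abcf-2* (T27E9.7, III, 13457765 to 13462238) had 447 and 461 CPM under ketamine and 513 and 465 CPM in controls (log2 fold change -0.11, 95% interval -0.50 to 0.29, adjusted p = 0.826, edgeR). *abcf-3* (F42A10.1, III, 6173305 to 6176172), a relative of yeast GCN20, had 129 and 133 CPM under ketamine and 166 and 151 CPM in controls (log2 fold change -0.27, standard error 0.14, adjusted p = 0.748, edgeR). *abcf-1* had 178 and 183 CPM under ketamine and 225 and 188 CPM in controls, and its log2 fold change of -0.19 was -0.09 without control 1. For all 3 genes both ketamine libraries were below both controls, as in 20.6% of all tested genes. The gap was small in *abcf-1* and *abcf-2*. *abcf-2* and *abcf-3* each overlap a coding gene on the opposite strand, as do *ced-7*, *mrp-4*, *pgp-10*, *wht-1* and *wht-2*. *abce-1*, a ribosome recycling factor of a related ABC group outside the rule, had a log2 fold change of -0.08.

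**Figure D5:**
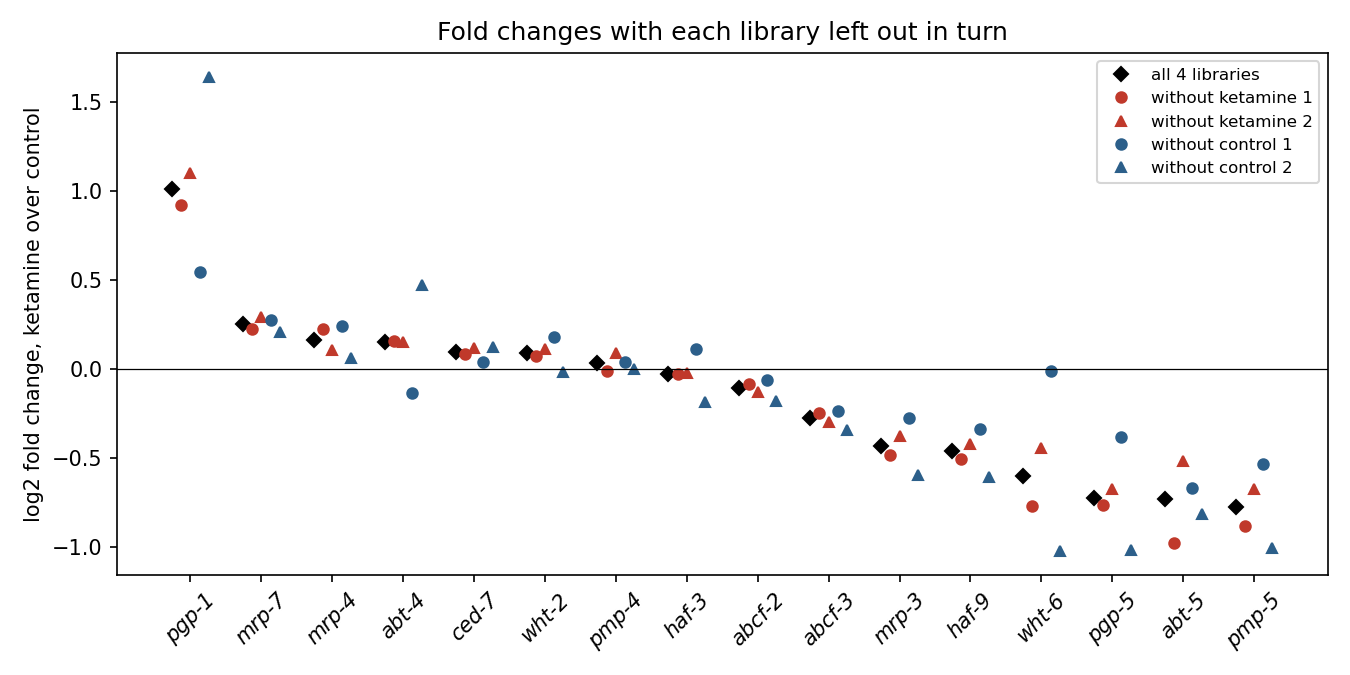
Log2 fold changes of 16 ABC genes with all 4 libraries (black) and with each library left out in turn. *pgp-1* moved between 0.55 without control 1 and 1.64 without control 2, and *wht-6* between -0.01 and -1.02. *pgp-13*, which lies between 4.57 and 4.89, is beyond the axis and is not drawn.

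Over the 50 tested members, small negative differences were common. The median log2 fold change was -0.18, against -0.01 for all tested genes, and 36 members lay below 0 and 14 above, where 50.5% and 49.5% of all genes did. Both ketamine libraries were below both controls in 18 of 50 members (20.6% of all genes) and above both in 9 of 50 (23.1%). Control 1 bore on this. In that library the median member was above control 2, with control 2 minus control 1 at -0.24 on the log2 scale, against 0.01 for all genes, and 39 of 50 members were higher in control 1 than in control 2, where 49.6% of all genes were. Without control 1 the median was -0.07 with 32 members below 0, and without control 2 it was -0.29. The log2 fold change changed sign in 15 of the 50 members when some library was left out, in 10 of them without control 1. Set against control 2 alone, the median member differed by 0.02 in ketamine 1 and by -0.10 in ketamine 2.

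Standard errors of the log2 fold changes ran from 0.14 to 0.49. For 30 of the 50 members the 95% interval lay within 2-fold in both directions, for 46 it left out a 2-fold rise, and for 34 it left out a 2-fold fall.

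Genes that act beside these transporters were counted by lists chosen by name. Of 38 organic ion, sulfate, nucleoside, peptide and carboxylate transporters outside the ABC class, edgeR had 2 lower and 0 higher before adjustment (p under 0.05), namely the organic anion transporter *oat-1* with a log2 fold change of -0.91 and the carboxylate carrier *nac-3* with -0.78. None passed adjustment (0 of 38), and 36 of the 38 lay below 0, with a median of -0.21. Over all tested genes, 50.5% lay below 0, and 3.32% were lower at an unadjusted p under 0.05 in edgeR. The list ran from -2.56 for *mct-1*, which did not pass at an unadjusted p under 0.05, to 0.34 for *slc-17.3*. *oat-1* had 11.4 and 12.1 CPM under ketamine and 25.8 and 18.3 CPM in controls. Of 24 regulators of the response to foreign compounds and stress, 0 passed at an unadjusted p under 0.05 in either direction. Their median was 0.10, with 18 of the 24 above 0 (49.5% of all genes). Both ketamine libraries were above both controls in 5 of the 24, against 23.1% of all genes. The median CPM of the list was 41.7 and 44.4 under ketamine, 29.1 in control 1 and 43.6 in control 2. Control 1 alone was low. The 24 regulators ran from -0.63 for *ahr-1* to 1.15 for *cebp-2*. Among them the nuclear receptor *nhr-8*, which is needed for resistance to colchicine and chloroquine, had a log2 fold change of 0.01, *nhr-86* had 0.20 and the detoxification regulator *skn-1* had 0.19.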

How the data were processed

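The authors aligned paired-end reads from stranded mRNA libraries to WBcel235 with HISAT2 2.0.5, assembled them with StringTie 1.3.3b, counted them on genes with featureCounts 1.5.0-p3 and deposited counts without normalization. They also deposited FPKM, that is, counts scaled for the length of the gene and the size of the library. How reads that match several genes were treated is not given in the sources used here. Columns were matched to samples by title, and those named for the wild type to the controls by their number.

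Symbols came from WormBase identifiers, matched for 46182 of 46643 rows. *abt-6*, protein-coding in the count table at a length of 759 bases, is named by RefSeq alone. Newer annotation lists it as a pseudogene, and it was kept by the rule. The 3 ABC genes marked as pseudogenes in the count table were left out. Of the 53 members, 50 had at least 10 counts in at least 2 libraries and were tested. Ketamine was compared with control in edgeR 4.0.16 (quasi-likelihood test, TMM scaling, R 4.3.3) over 15793 genes, without a replicate block. Genes were called at an adjusted p under 0.05 and at least 2-fold. The standard error of a log2 fold change was taken from its F statistic, and 95% intervals use the quantile of the fit's degrees of freedom. Alternatives used DESeq2 1.42.0, limma 3.58.1 on log2(FPKM + 1) and log2(FPKM + 0.1), other scalings, filters and gene sets, a replicate block, and each library left out. A 3-library fit assumes that the lone library varies like the pair.

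Values in every library are given for members past an unadjusted p under 0.05 and 2-fold, for the most abundant member of each list and for the ends of its range. Other members with a known role or position were added after their values were seen. The members and lists were chosen with earlier results of these data known. Counts of 15489 genes were simulated at the spread of these libraries. In them 200 genes, drawn from those with a mean of at least 50 counts, were changed 4-fold. Of these 200 edgeR recovered 77%, and 18 of its 172 calls were false. DESeq2 recovered 91%, and 66 of its 248 calls were false. Recovery of genes with fewer counts was not tested. Sequences, and a promoter motif count that had been planned, were not analysed here.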

Additional observations from a re-analysis of the deposited data

How the results depend on the processing

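*pgp-13* was called higher in 16 of 17 alternatives, and limma on log2(FPKM + 1) without a filter called 0 members. Scaling by total counts or by the FPKM constants was chosen after the data were seen. The number of members higher at an unadjusted p was 1 in place of 2 with upper-quartile scaling, without a count filter, with at least 50 counts and without the 20 most abundant genes, where *pgp-1* missed the 2-fold limit or the p. The median of the members was -0.28 with upper-quartile scaling. Leaving out 1 library gave 1 to 2 members called higher, 0 to 3 called lower, 1 to 2 higher and 0 to 3 lower at an unadjusted p, and medians of -0.29 to -0.074. The 3 called lower without control 2 were *pgp-5*, *pmp-5* and *wht-6*.

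Over all genes, 15 were called higher and 0 lower. DESeq2 called 109 and 23, edgeR without a count filter 67 and 6, edgeR with the replicate block 34 higher, and limma on log2(FPKM + 1) without a filter 8 higher. Leaving out 1 library gave 12 to 1686 higher and 0 to 659 lower, with the highest numbers without control 2 and 99 and 39 without control 1. The cause was not tested.

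Of the 17 members chosen by the rule for full values, 4 changed the sign of their log2 fold change under some alternative, and of all 50 tested 15 did when some library was left out. With upper-quartile scaling, which shifted the median of all genes to -0.10, *pmp-4* was at -0.062 and *wht-2* at -0.0099, and with total counts *pmp-4* was at -0.00097. Leaving out 1 library gave -0.011 to 0.090 for *pmp-4*, -0.017 to 0.18 for *wht-2*, -0.13 to 0.48 for *abt-4* and -0.18 to 0.12 for *haf-3*. Whether same-numbered libraries shared a culture or a batch is not given in the labels. Their deviations from the group means correlated at 0.06, but with 2 libraries per group this cannot exclude a shared batch. The replicate block left 1 member called higher and 0 lower, with *pgp-13* at 4.72 (adjusted p = 0.000979, edgeR).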
